A study of Mus musculus with 14 samples.

Results

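Mitochondrial ribosomal proteins were taken as the protein-coding genes whose symbol is Mrpl or Mrps followed by a digit, without the pseudogenes whose names end in -ps. The rule found 78 members, 49 Mrpl and 29 Mrps genes, among the 56748 genes of the files. No measured value entered this rule. Their levels were compared between 3 groups of heart RNA, and the large subunit was compared with the small one.

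The study asked what loss of frataxin and treatment with precursors of NAD+ do to the heart in mice that model Friedreich's ataxia, and the 14 libraries here are its WT hearts. All came from mice labelled WT C57BL6J with no treatment, and 1 library was made per mouse. The groups were WT_A (mice 22, 23, 24 and 26, n = 4), WT_F (mice 28, 29, 30, 31 and 32, n = 5) and WT_B (mice 4, 5, 7, 8 and 9, n = 5), and values below are listed in that order of mice. All groups share the doxycycline chow that induces the knockdown in the transgenic mice: by the study's methods the WT controls ate it too, and the protocol note on every library gives 16 to 20 weeks of it. The labels state neither sex, age nor cohort. Xist, the RNA of the inactive X chromosome, was at 1.23 to 4.97 FPKM in WT_F and at no more than 0.0122 FPKM in any library of WT_A or WT_B. By this marker the hearts of WT_F were female and the others male. A difference of WT_F from another group therefore cannot be told apart from sex. The paper studied its first cohort, the one with females, for up to 26 weeks, so the weeks of WT_F are not settled by the note. It ended males of that cohort at 20 weeks and those of its second cohort at 16. In the titles the WT_F mice also carry the letter A (A28 to A32). Cohort and weeks of WT_A and WT_B are not stated, so neither can be told apart from a difference between these groups. FPKM is the number of fragments of a gene scaled to its exon length and to the sequencing depth of the library. Depth read from the steps of the FPKM values was 19963196 to 31969685 fragments in WT_A, 21908236 to 27275494 in WT_F and 16808242 to 23612712 in WT_B.

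Some libraries stood apart from the rest of their group. WT_A 24 held Myl7, an atrial myosin light chain, at 4235 FPKM and Sln (sarcolipin) at 1444 FPKM, whereas Sln was at 0.271 FPKM or less elsewhere. Its ventricular light chain Myl2 was at 82.1 FPKM and at 2226 or more in each other library. Heart muscle markers summed to 12101 to 18292 FPKM in all libraries, while 4 fibroblast markers summed to 72.4 to 81.0 FPKM in WT_F, 76.7 to 106 in WT_A and 84.2 to 111 in WT_B, and macrophage markers to 34.5 to 58.4 FPKM over all. Bulk RNA cannot tell fewer cells of a type from less RNA per cell, and the p-values below measure the spread between mice. Transcripts of the mitochondrial genome made up 51.0% of FPKM in WT_A 22, 49.99% in WT_F 28 and 33.8% to 52.0% in WT_B, but 1.93% to 17.2% in the other 7 libraries. This share therefore goes with WT_B, and its part in a difference of WT_B from another group cannot be told apart from the group. Results that rest on WT_A 22, WT_A 24 or WT_F 28 are given with and without them. Only libraries 23 and 26 of WT_A then remain. WT_A 22, WT_A 24 and WT_F 28 were left out for their own values. What is left of WT_A and WT_F lies at 1.93% to 17.2%, wholly apart from WT_B. P-values of fits without them are therefore descriptions and not a test free of that choice.

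The mitochondrial ribosome translates the few proteins that the mitochondrial genome encodes, all of them subunits of the respiratory chain or the ATP synthase. Its RNAs are mitochondrial, but its proteins are encoded in the nucleus, made in the cytosol and imported. Some have a counterpart in the bacterial ribosome and the others exist in mitochondria alone. The heart relies on this machinery for oxidative phosphorylation, and in humans inherited defects of several members cause cardiomyopathy.

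Promoter windows of 4 members named below are shown. Mrpl57 was called as lower in WT_B than in WT_F. Mrpl1 and Mrps18c had higher means in WT_B and were not called with all libraries. Mrpl12 was among the highest members. No window of 300 bases was at hand for Mrps28, the other member called with all libraries. Each window shown holds 250 bases before the start of the gene and 50 after it, on the plus strand of GRCm38.p6, from RefSeq. Capitals mark matches to the ETS motif CCGGAAG (bound by GABPA), the GC box GGGCGGG or the E-box CACGTG, on either strand. Mrpl57 lies at chr14:57825989-57826288, Mrpl1 at chr5:96209865-96210164, Mrps18c at chr5:100798509-100798808 and Mrpl12 at chr11:120484387-120484686.
Mrpl57: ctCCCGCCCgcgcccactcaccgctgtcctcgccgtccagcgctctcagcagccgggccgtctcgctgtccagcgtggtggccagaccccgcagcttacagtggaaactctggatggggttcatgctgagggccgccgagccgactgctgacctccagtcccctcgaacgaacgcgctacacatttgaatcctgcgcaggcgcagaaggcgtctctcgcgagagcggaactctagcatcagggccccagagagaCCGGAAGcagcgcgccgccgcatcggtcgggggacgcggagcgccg
Mrpl1: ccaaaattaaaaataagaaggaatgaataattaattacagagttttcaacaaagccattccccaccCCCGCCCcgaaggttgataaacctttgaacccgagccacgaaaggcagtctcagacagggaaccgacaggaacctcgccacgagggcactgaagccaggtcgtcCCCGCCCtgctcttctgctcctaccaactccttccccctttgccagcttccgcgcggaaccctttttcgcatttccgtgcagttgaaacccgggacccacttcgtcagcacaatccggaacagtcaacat
Mrps18c: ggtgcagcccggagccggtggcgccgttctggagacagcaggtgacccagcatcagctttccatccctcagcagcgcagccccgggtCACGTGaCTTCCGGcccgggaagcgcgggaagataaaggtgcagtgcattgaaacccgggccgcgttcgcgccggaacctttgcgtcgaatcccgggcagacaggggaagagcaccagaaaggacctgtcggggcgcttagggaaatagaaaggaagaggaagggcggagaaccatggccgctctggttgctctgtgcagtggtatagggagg
Mrpl12: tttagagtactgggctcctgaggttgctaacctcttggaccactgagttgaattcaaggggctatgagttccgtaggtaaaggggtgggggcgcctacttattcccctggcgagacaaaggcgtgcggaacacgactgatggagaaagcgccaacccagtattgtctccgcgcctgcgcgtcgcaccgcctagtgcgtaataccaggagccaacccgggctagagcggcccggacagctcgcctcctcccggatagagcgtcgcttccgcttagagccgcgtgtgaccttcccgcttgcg
The Mrpl57 window holds an ETS match just past the gene start and a reverse GC box near its far end, the Mrpl1 window holds 2 reverse GC boxes, and the Mrps18c window holds an E-box beside a reverse ETS match. The Mrpl12 window holds none of the motifs searched.

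Windows were at hand for 69 members and 27025 promoters in all. The ETS motif was in 25 of the 69 (36.2%) and in 9.12% of all promoters. The motif of NRF1 (GCATGCG), a regulator of nuclear genes for mitochondria, was in 8 members (11.6%) and in 3.64% of all promoters. That of YY1 (AAGATGG) was in 13 members (18.8%) and in 6.48% of all. The GC box was in 29 members (42.0%) and in 25.8% of all, while the E-box was in 5 members (7.25%) and in 7.24% of all. The shares were counted on both strands, and a window may hold several motifs. Member windows were richer in CpG, with a median observed to expected ratio of 0.818 against 0.389 over all promoters, and how far this goes with the motif shares was not tested. A match describes the letters of a window and is not evidence of binding.

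**Figure D1:**
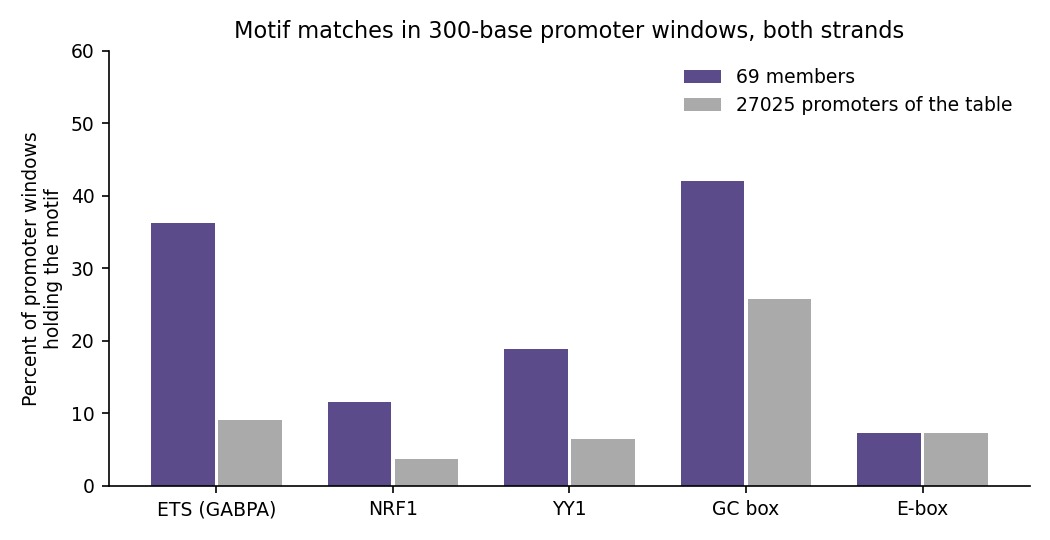
Percent of 300-base promoter windows that hold each motif on either strand, in 69 members (dark bars) and in all 27025 promoters of the RefSeq table (grey bars). The ETS bars stand at 36.2% and 9.12%, and the E-box bars at 7.25% and 7.24%.

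Many members share their promoter region with a neighbour. A protein-coding gene on the opposite strand started within 1000 bases, head to head with or without overlap, for 33 of the 78 members (42.3%) and for 10.8% of 22028 protein-coding genes. Mrpl46 and Mrps11 form such a pair of a large and a small subunit gene. Mrpl36 faces Ndufs6 and Mrpl47 faces Ndufb5, both of them genes of complex I subunits, and Mrps12 faces Sars2, the mitochondrial seryl-tRNA synthetase. Mrpl57 faces Ska3 and Mrps18c faces Helq. The members of the Mrpl46 and Mrps11 pair did not have equal levels: Mrpl46 was at 17.8 ± 1.58 FPKM (SD, n = 5) and Mrps11 at 6.57 ± 0.448 FPKM in WT_B.

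Of the 78 members, 77 were detected in every library. They averaged 2.42 to 117 FPKM over the 14 libraries, a range of 48.1-fold, with a median of 15.7 FPKM over all 78, and 55 of them averaged 10 FPKM or more. FPKM divides by exon length, and fragments differed less. Mrps10, the lowest, had 295 to 657 fragments per library and Mrpl34, the highest, had 935 to 2397. Mrpl53 was listed at 0 in all libraries, and 88.0% of its exon bases are shared with other annotated genes, so that its fragments may not have been assigned to it. The 77 others had between 48 and 6735 fragments in a library. Exon bases were shared with another gene for 33 members, and over 50% were shared for 3, Mrpl53, Mrps34 and Mrps25. The protocol names both a directional and a non-directional preparation, so fragments of these genes may be split between the overlapping partners. The 5 annotated pseudogenes of the family were at 6.79 FPKM or less.

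The highest member was Mrpl34, a small protein of the large subunit with a bacterial counterpart. It was at 123, 137, 90.7 and 169 FPKM in WT_A, at 101, 124, 113, 130 and 132 in WT_F and at 121, 91.6, 94.2, 93.8 and 111 in WT_B. Mrpl12, the stalk protein that is present in several copies per ribosome and recruits translation factors, came next with 127 ± 30.6 FPKM in WT_A (SD, n = 4), 111 ± 9.06 in WT_F (n = 5) and 93.9 ± 11.5 in WT_B (n = 5). The next means over all libraries were 88.4 FPKM for Mrps21, 84.1 for Mrps23, 80.7 for Mrpl28, 63.2 for Mrpl2, 58.0 for Mrpl55 and 57.2 for Mrpl14. Mrps21 and Mrps23 belong to the small subunit, and the other 6 to the large one. In the order of levels the neighbours Mrpl34 and Mrpl12, and likewise Mrps21, Mrps23 and Mrpl28, overlapped in the ranges of each group.

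The lowest members with fragments were Mrps10 (mean 2.42 FPKM), Mrpl32 (2.64), Mrps30 (3.37), Mrps22 (4.03), Mrps25 (4.09), Mrpl47 (4.13) and Mrpl19 (4.63). Mrps10 was steady across the groups, at 2.58 ± 0.196 FPKM in WT_A, 2.48 ± 0.256 in WT_F and 2.25 ± 0.200 in WT_B. Low and high members thus occur in both subunits of a particle that holds most of its proteins in a single copy. Annotated exon length was 607 to 1560 bases in the 8 highest members and 3991 to 8079 in the low ones listed. How far length sets the order of FPKM was not tested. Members with a bacterial counterpart (46) and members found in mitochondria alone (31) had similar medians, 15.1 and 17.2 FPKM. Members whose human defects cause cardiomyopathy were named after values were seen. Mrpl3 was at 15.5 ± 1.30, 15.7 ± 1.13 and 13.9 ± 0.632 FPKM in WT_A, WT_F and WT_B, and Mrpl44 at 38.9 ± 8.43, 35.6 ± 3.28 and 29.9 ± 1.25 FPKM. Mrps22 was at 4.13 ± 0.286, 4.02 ± 0.757 and 3.97 ± 0.702 FPKM.

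**Figure D2:**
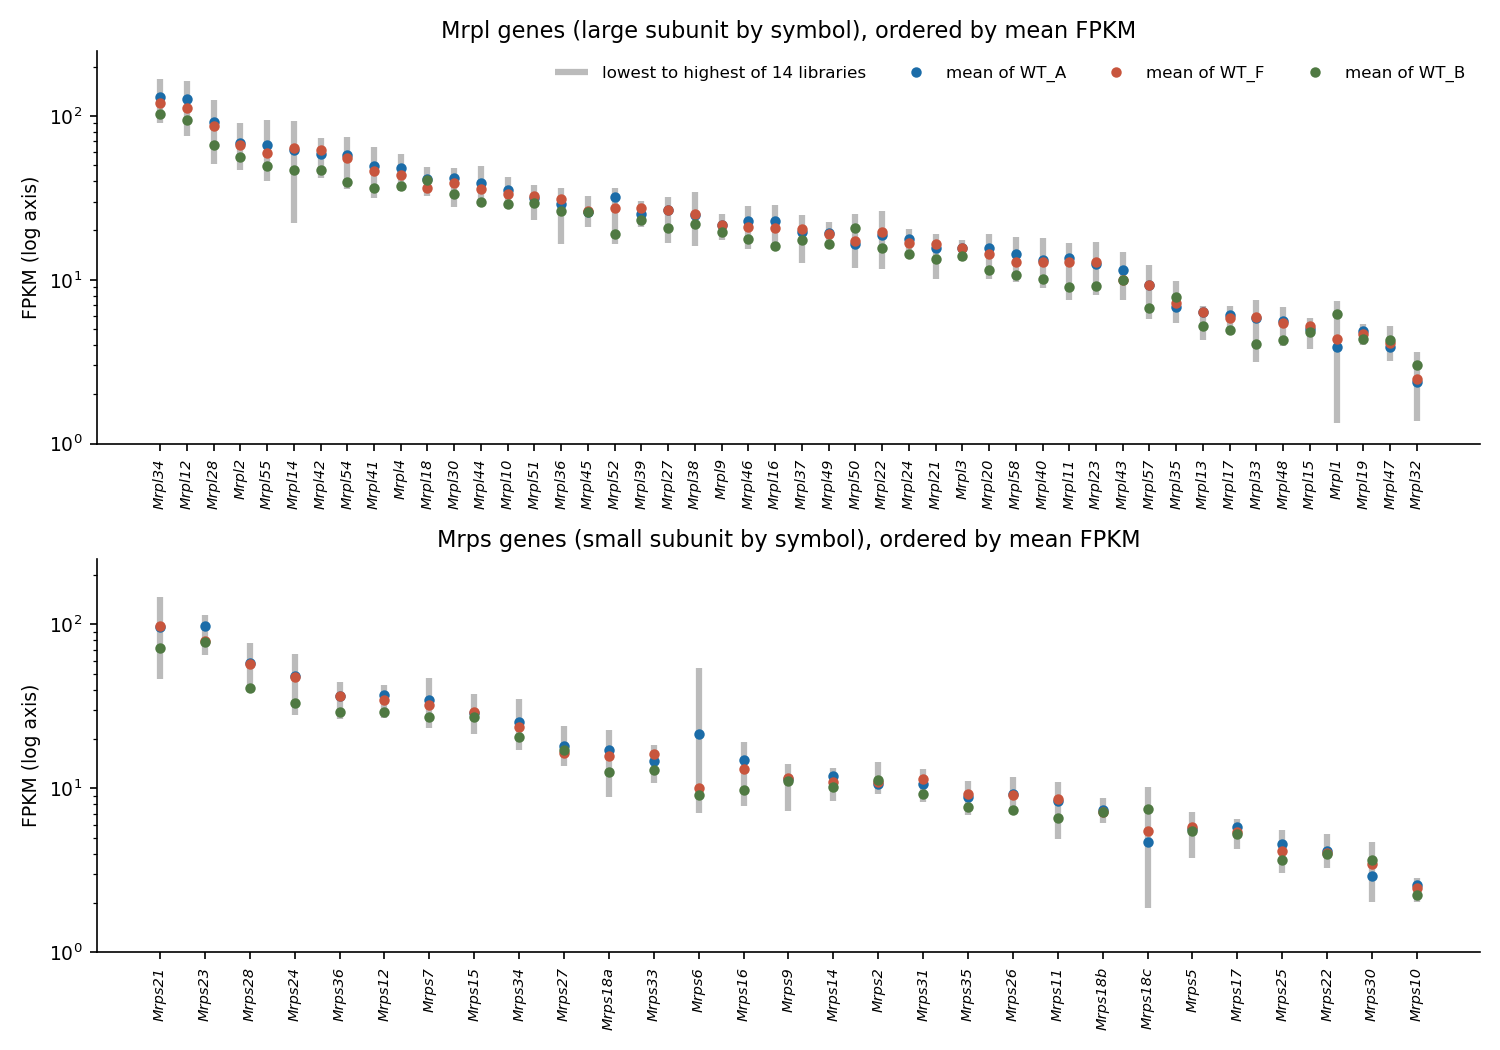
FPKM on a log axis for the 48 Mrpl genes above 0 (upper panel) and the 29 Mrps genes (lower panel), ordered by mean level. Grey bars run from the lowest to the highest of the 14 libraries and dots are the group means, from Mrpl34 at a mean of 117 FPKM down to Mrps10 at 2.42.

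Large subunit genes were at higher levels than small subunit genes in every library. The median of the 49 Mrpl genes was 15.5 to 25.2 FPKM per library and that of the 29 Mrps genes 8.45 to 13.99 FPKM. Their ratio was 1.60, 1.64, 1.74 and 1.80 in WT_A, 1.64, 1.87, 1.66, 1.94 and 1.78 in WT_F, and 1.66, 1.66, 1.90, 1.70 and 1.40 in WT_B. The group means were 1.69 ± 0.0922 (SD, n = 4), 1.78 ± 0.131 (n = 5) and 1.66 ± 0.178 (n = 5), so the groups overlapped throughout and differed by less than the spread between libraries. WT_A 22 and WT_F 28, at 1.60 and 1.64, were within the range of WT_B. The mean FPKM per gene gave a smaller ratio, 1.30 ± 0.0434 in WT_A, 1.32 ± 0.0381 in WT_F and 1.31 ± 0.0460 in WT_B.

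Symbols and places in the ribosome differ for a few members. Mrps30 and Mrps18a carry a small subunit name but sit in the large subunit, and Mrps36 is a part of the 2-oxoglutarate dehydrogenase complex. With members grouped by place (51 large, 26 small), the ratio was 1.67, 1.78 and 1.67 in WT_A, WT_F and WT_B. Among the 3 paralogues of the bacterial S18 protein, Mrps18a was highest, at 17.1 ± 6.44, 15.7 ± 1.46 and 12.6 ± 1.36 FPKM in the groups in turn. Mrps18b, which sits in the small subunit, was at 7.41 ± 1.20, 7.17 ± 0.633 and 7.14 ± 0.975 FPKM. Mrps18c, also of the small subunit, was at 4.67 ± 2.80, 5.49 ± 2.81 and 7.49 ± 0.560 FPKM, and it is the only paralogue of the 3 with a higher mean in WT_B than in both other groups.

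**Figure D3:**
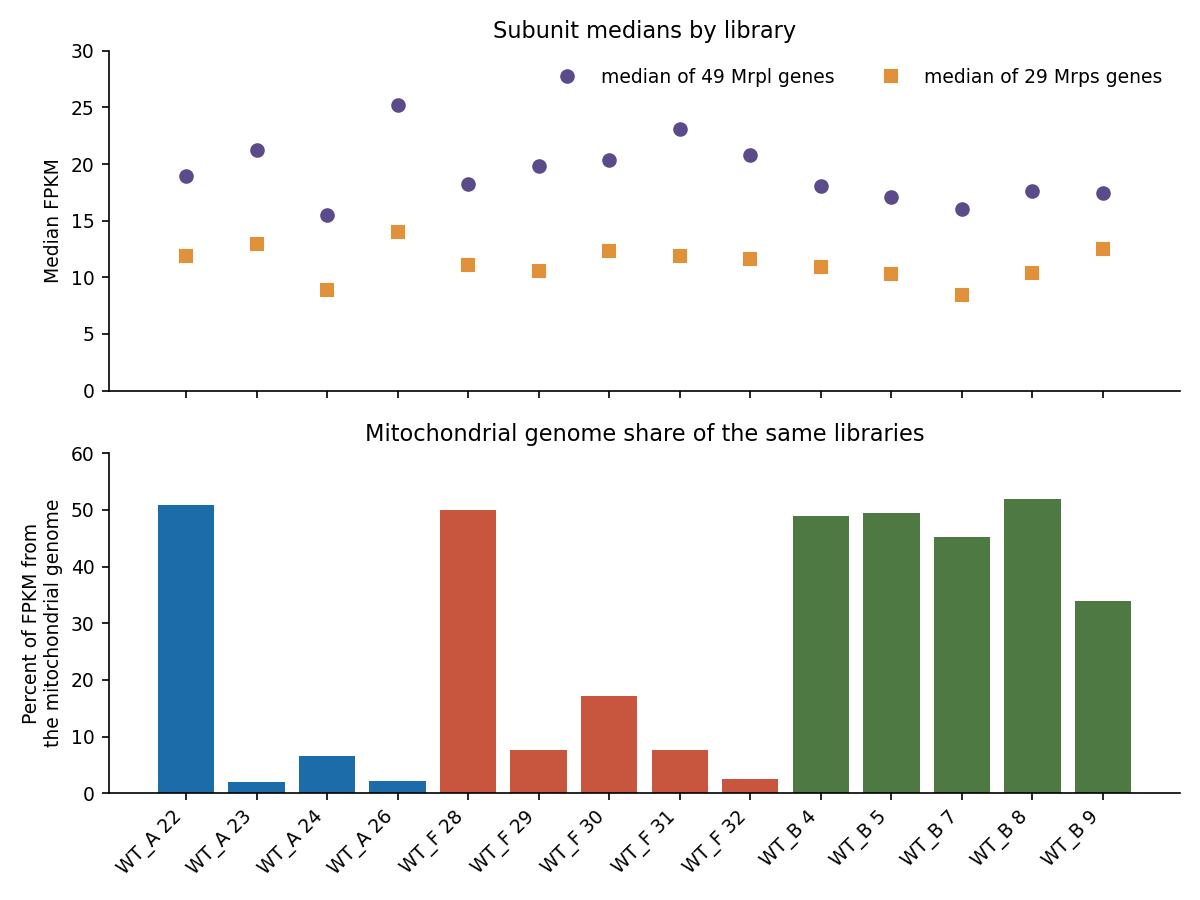
Upper panel, median FPKM of the 49 Mrpl genes (circles) and the 29 Mrps genes (squares) in each library; lower panel, percent of all FPKM from the mitochondrial genome in the same libraries. The Mrpl median lies above the Mrps median in all 14 libraries, and WT_A 22 and WT_F 28 share the high mitochondrial percent of WT_B.

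Spread between libraries was smallest in WT_B. The median coefficient of variation of the 77 members was 21.96% in WT_A, 11.0% in WT_F and 9.55% in WT_B, beside 22.4%, 14.2% and 12.7% for all genes at 1 FPKM or more in the group. Within WT_B, Mrps28 (2.26%), Mrpl17 (2.44%), Mrpl49 (3.61%) and Mrpl2 (3.84%) varied least. Mrps6 (22.9%), Mrps15 (21.8%), Mrpl30 (21.2%) and Mrpl23 (20.0%) varied most there. Mrps15, for example, was at 23.9, 23.9, 25.6, 25.5 and 37.9 FPKM. In each of these 4, mouse 9 was the highest of its group, and its mitochondrial percent of 33.8% was the lowest of WT_B.

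The first comparison was WT_F against WT_A, and no member passed the test. By Xist it is also a comparison between the sexes. Log2(FPKM + 1) was tested with limma (two-sided), p-values were adjusted over all genes by Benjamini-Hochberg, and 0.05 was the threshold. Of 77 members tested, 0 were called, and 0 had an unadjusted p under 0.05, beside 0.0240% of 12483 genes called and 3.85% with an unadjusted p under 0.05. The median log2 difference of the members was -0.02, with 36 above 0 beside 49.5% of genes, and that of all genes was -0.00. Voom on the recovered fragments called 0 members as well. The smallest p belonged to Mrps23 at 98.2 ± 16.0 FPKM in WT_A and 79.1 ± 11.7 in WT_F (log2 difference -0.31, SE 0.16, limma adjusted p = 0.9997), followed by Mrpl18, Mrps6 and Mrpl52. No member had groups without overlap, beside 1.56% of all genes.

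Spread within WT_A was widest for Mrps6. This small subunit protein with a bacterial counterpart was at 9.28, 7.94, 54.1 and 14.4 FPKM in WT_A, at 9.50 to 10.7 in WT_F and at 7.02 to 12.5 in WT_B. The value of 54.1 FPKM came from WT_A 24, the library with high atrial markers. In the annotation 19.9% of the exon bases of Mrps6 are shared with Slc5a3 and another gene, and Slc5a3 was at 1.26 FPKM in WT_A 24 and at 0.318 or less elsewhere. WT_A 24 was below the other 3 libraries of its group for 57 of the 77 members, among them Mrpl57 and Mrps21, and above them for Mrps6 alone. Over 13180 expressed genes it was below for 29.8% and above for 30.5%. Without WT_A 22, WT_A 24 and WT_F 28, 0 members were called in WT_F against WT_A (beside 0.00841% of genes) and the median member difference was -0.17, beside -0.02 for all genes. At an unadjusted p under 0.05, 2 members were then higher and 21 lower, beside 818 and 866 of 11893 genes.

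WT_B against WT_A gave lower values for most members, none past the threshold. Cohort and weeks may differ between these groups, which the labels do not settle. Of 77 members, 8 had a positive log2 difference, beside 44.7% of genes, and the median was -0.25, beside -0.04 over the 12745 genes tested. With limma 0 members were called, beside 0.322% of genes. At an unadjusted p under 0.05 there were 2 higher and 21 lower members, beside 22.5% of genes in either direction and 10.5% lower, and voom on recovered fragments called 0. With the mitochondrial genome removed these counts were 4 and 5, beside 2321 and 440 of 12710 genes. With log2 of the mitochondrial percent in the fit they were 0 and 0, beside 345 and 261 of 12745 genes. The lower members were 6 without WT_A 23, beside 903 of 12632 genes, and 4 without WT_A 26, beside 884 of 12631. Groups did not overlap for 5 members, Mrps16, Mrpl11, Mrpl16, Mrpl17 and Mrpl10, each lower in WT_B, beside 6.91% of genes without overlap in either direction and 4.07% that were lower. The median was -0.26 for Mrpl and -0.19 for Mrps genes. For comparison it was -0.58 for the proteins of the cytosolic ribosome and -0.27 for complex I subunits.

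Mrpl52, a large subunit protein found in mitochondria alone, had the smallest p. Its values were 22.96, 36.2, 33.1 and 35.2 FPKM in WT_A, 20.6, 27.1, 27.4, 29.4 and 33.3 in WT_F, and 19.1, 19.2, 16.5, 17.3 and 23.1 in WT_B. The lowest library of WT_A, 22, and the lowest of WT_F, 28, were the libraries of high mitochondrial percent, and both groups overlapped WT_B. The log2 difference of WT_B from WT_A was -0.70 (SE 0.15, limma adjusted p = 0.0773). Mrps16, a small subunit protein, differed by -0.54 (SE 0.15, limma adjusted p = 0.108), and Mrpl11, near the base of the stalk, by -0.52 (SE 0.15, limma adjusted p = 0.111). Mrpl16, which has a bacterial counterpart in the large subunit, differed by -0.45 (SE 0.13, limma adjusted p = 0.115).

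WT_B against WT_F, which shares the WT_B libraries with the comparison just given, had 2 members called, Mrpl57 and Mrps28, both lower in WT_B. By Xist these groups also differ in sex, which cannot be told apart from the group. Over 12894 genes 1.61% were called, 0.946% as lower. The median log2 difference of the members was -0.22, beside -0.03 for all genes, and 10 of 77 were above 0, beside 44.0% of genes. At an unadjusted p under 0.05 there were 1 higher and 42 lower members, beside 25.8% of genes in either direction and 13.7% lower. With the mitochondrial genome removed these counts were 4 and 26, beside 2321 and 831 of 12860 genes. With log2 of the mitochondrial percent in the fit they were 0 and 5, beside 598 and 498 of 12894 genes. The groups did not overlap for 14 members, all of them lower in WT_B, beside 5.23% of genes in either direction and 3.61% lower. The median was -0.23 for Mrpl and -0.15 for Mrps genes, and the difference between the subunits was not tested. Cytosolic ribosomal proteins had a median of -0.52 and complex I subunits of -0.29.

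Mrpl57 is a small protein of the large subunit without a bacterial counterpart. It was at 8.79, 9.59, 8.66, 10.1 and 9.44 FPKM in WT_F and at 6.57, 6.88, 6.18, 6.98 and 6.91 in WT_B. Every WT_B library was below every WT_F library, and WT_F 28 was not the lowest of its group. The log2 difference was -0.42 (SE 0.07, limma adjusted p = 0.0263). In WT_A the values were 8.85, 10.5, 5.73 and 12.4 FPKM, which overlap WT_B through WT_A 24. The call was lost without WT_F 29, 31 or 32 and without WT_B 4 or 5, with adjusted p of 0.0555 to 0.0788. It was also lost with all 14 libraries in 1 fit and with log2 of the mitochondrial percent in the fit.

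Mrps28, a small subunit protein with a bacterial counterpart, was at 46.2, 58.7, 53.2, 61.5 and 68.4 FPKM in WT_F and at 40.1, 39.5, 41.9, 41.0 and 41.1 in WT_B. WT_F 28 was the nearest of its group to WT_B, and the groups did not overlap. The log2 difference was -0.48 (SE 0.10, limma adjusted p = 0.0400). WT_A held 43.6 and 41.2 FPKM in libraries 22 and 24 and 70.9 and 77.4 FPKM in libraries 23 and 26. The call was kept without WT_F 28 or WT_B 9 and lost without each other library, with adjusted p of 0.0653 to 0.111. It was also lost with no filter, with the mitochondrial genome removed and with quantile normalization. The same held with all 14 libraries in 1 fit and with log2 of the mitochondrial percent in the fit.

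Several members lay just above the threshold in the same comparison. Mrpl16 was at 18.1, 19.8, 21.4, 23.05 and 21.4 FPKM in WT_F and at 15.9, 15.5, 16.2, 17.6 and 15.6 in WT_B (log2 difference -0.34, SE 0.08, limma adjusted p = 0.0512). Mrps24, the counterpart of bacterial S3 at the mRNA entry of the small subunit, was at 38.05, 51.7, 40.6, 53.1 and 54.5 FPKM in WT_F and at 33.0, 36.4, 28.01, 33.1 and 34.8 in WT_B (log2 difference -0.50, SE 0.12, limma adjusted p = 0.0539). In both, the groups did not overlap and WT_F 28 was the lowest library of WT_F. Mrpl11 differed by -0.46 (SE 0.11, limma adjusted p = 0.0540). Mrps36, of the 2-oxoglutarate dehydrogenase complex, was at 33.6, 39.9, 33.0, 39.4 and 37.0 FPKM in WT_F and at 31.6, 29.98, 29.4, 28.9 and 26.4 in WT_B (log2 difference -0.31, SE 0.08, limma adjusted p = 0.0620). The remaining members without overlap were Mrps16, Mrpl27, Mrpl28, Mrpl41, Mrpl20, Mrpl49, Mrpl37 and Mrpl3, with log2 differences of -0.39 to -0.17 and adjusted p of 0.0673 to 0.154.

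**Figure D4:**
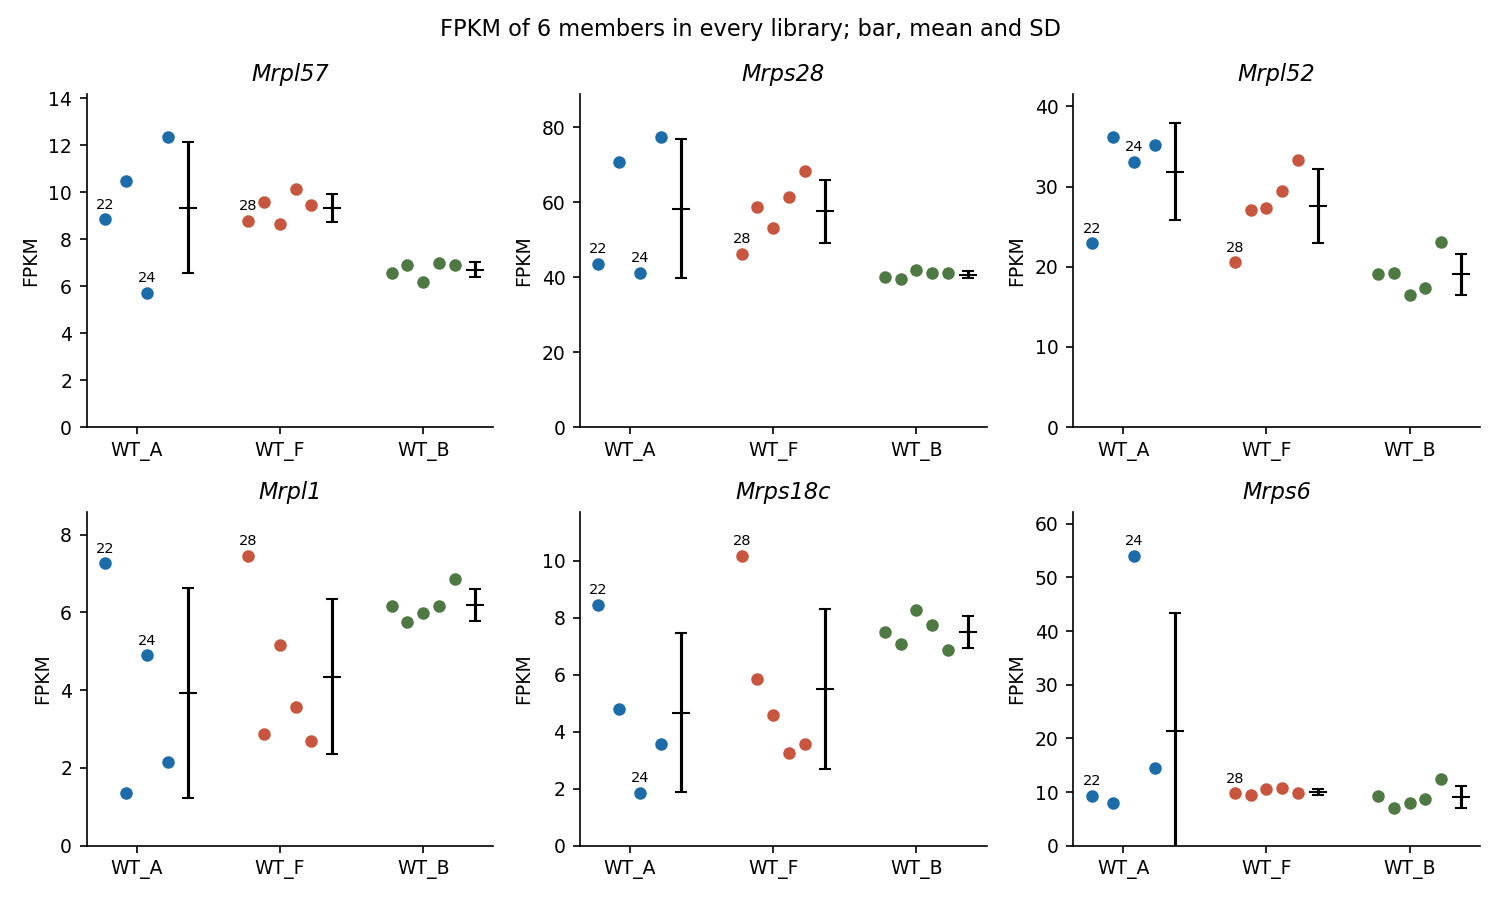
FPKM of Mrpl57, Mrps28, Mrpl52, Mrpl1, Mrps18c and Mrps6 in each of the 14 libraries, with the mean and SD of each group as a bar (cut at 0 for Mrps6 in WT_A) and libraries WT_A 22, WT_A 24 and WT_F 28 numbered. WT_B lies below WT_F without overlap for Mrpl57 and Mrps28, and libraries 22 and 28 lie at or above WT_B for Mrpl1 and Mrps18c.

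The number of members called depended on which of WT_A 22, WT_A 24 and WT_F 28 were in the fit. Without WT_A 22, WT_A 24 and WT_F 28, 5 members were higher and 46 lower in WT_B than in WT_A, beside 17.1% and 16.7% of 12448 genes (33.8% together). That fit holds only libraries 23 and 26 of WT_A, and its SE and p-values, here and below, rest on them. Without WT_F 28, 3 members were higher and 39 lower in WT_B than in WT_F, beside 11.4% and 9.31% of 12764 genes (20.7% together). Leaving out WT_A 22 alone gave 4 higher and 8 lower members against WT_A, beside 1463 and 929 of 12603 genes. Leaving out WT_A 24 alone gave 0, beside 0 of 12609 genes. It moved the members lower at an unadjusted p under 0.05 from 21 to 54, beside 1335 of 12745 and 1674 of 12609 genes. Leaving out WT_B 9 gave 5 lower members against WT_F, where fits with 1 library left out called 17 to 2645 genes. Mrpl52 differed from WT_A by -0.85 without WT_A 22 alone (SE 0.12, limma adjusted p = 0.00274) and by -0.88 without all 3 libraries (SE 0.13, limma adjusted p = 0.00167). Mrps28 differed from WT_A by -0.57 without WT_A 22 alone (SE 0.19, limma adjusted p = 0.0615), and by -0.85 without all 3 (SE 0.08, limma adjusted p = 0.000269). When a term for log2 of the mitochondrial percent was added to the fit, 0 members were called in each comparison. The median member difference of WT_B was then -0.08 from WT_A and -0.09 from WT_F. Outside WT_B only WT_A 22 and WT_F 28 reach its percent, so these fits rest largely on them.

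**Figure D5:**
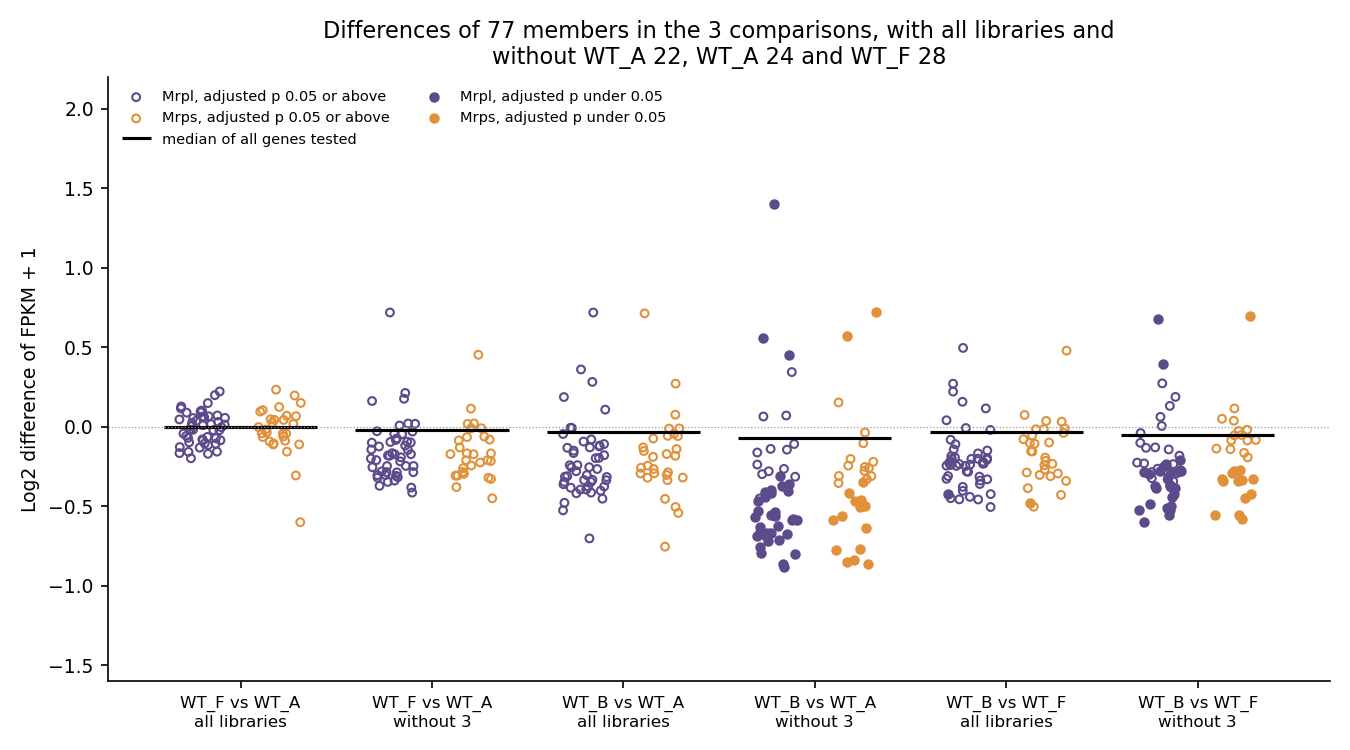
Log2 differences of FPKM + 1 for 77 members in the 3 comparisons, with all libraries and without WT_A 22, WT_A 24 and WT_F 28 (Mrpl purple, Mrps orange; filled where the limma adjusted p is under 0.05; black lines, median of all genes tested). With all libraries, 2 members are filled, both in WT_B against WT_F; without the 3 libraries 51 and 42 are filled in the comparisons of WT_B, most of them below 0.

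A few members ran against the majority and had higher means in WT_B. Mrpl1, the protein of the mobile L1 stalk, was at 7.26, 1.34, 4.90 and 2.16 FPKM in WT_A, 7.46, 2.88, 5.16, 3.55 and 2.70 in WT_F, and 6.17, 5.75, 5.97, 6.16 and 6.86 in WT_B. The highest library of each of the first groups was that of high mitochondrial percent, and the next highest of WT_F was WT_F 30, whose percent of 17.2% was the next highest. With all libraries Mrpl1 differed in WT_B by 0.72 from WT_A (SE 0.31, limma adjusted p = 0.212) and by 0.50 from WT_F (SE 0.20, limma adjusted p = 0.149). Without the 3 libraries the difference from WT_A was 1.40 (SE 0.13, limma adjusted p = 0.000178), and that from WT_F was 0.68 (SE 0.14, limma adjusted p = 0.00713). With the mitochondrial percent as a covariate it turned to -0.27 and -0.10.

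Mrps18c was at 8.46, 4.78, 1.86 and 3.58 FPKM in WT_A, 10.2, 5.84, 4.60, 3.26 and 3.58 in WT_F, and 7.48, 7.08, 8.29, 7.75 and 6.87 in WT_B. Libraries 22 and 28 were the highest of their groups, and the other 7 were below all of WT_B. With all libraries it differed in WT_B by 0.71 from WT_A (SE 0.27, limma adjusted p = 0.179) and by 0.48 from WT_F (SE 0.22, limma adjusted p = 0.195). Without the 3 libraries the values were 0.72 (SE 0.12, limma adjusted p = 0.00256) and 0.70 (SE 0.13, limma adjusted p = 0.00516). With 1 library left out the difference from WT_A went from 0.43 without WT_A 24 to 1.00 without WT_A 22. Mrpl50, found in mitochondria alone, was at 25.3 FPKM in WT_A 22, 24.2 in WT_F 28 and 19.3 to 22.3 in WT_B, against 11.9 to 17.3 in the other 7. With all libraries it differed by 0.36 from WT_A (SE 0.18, limma adjusted p = 0.270) and by 0.27 from WT_F (SE 0.14, limma adjusted p = 0.255). Without the 3 libraries this was 0.56 from WT_A (SE 0.11, limma adjusted p = 0.00517) and 0.40 from WT_F (SE 0.11, limma adjusted p = 0.0251). For Mrps18c and Mrpl50 too, WT_A 22 and WT_F 28, both left out, held the highest values of their groups. WT_A 24, also left out, held the lowest Mrps18c value of WT_A, 1.86 FPKM.

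Mrps30 and Mrpl32 (a protein matured by an inner membrane protease) were not highest in WT_F 28. Mrps30 was at 3.82, 2.03, 3.602 and 2.21 FPKM in WT_A, 3.92, 2.99, 4.11, 3.97 and 2.28 in WT_F, and 3.39, 3.47, 3.15, 3.54 and 4.73 in WT_B. Mrpl32 was at 3.604, 1.61, 1.96 and 2.28 FPKM in WT_A, 2.96, 2.23, 3.24, 2.68 and 1.38 in WT_F, and 2.87, 2.70, 3.07, 3.40 and 2.99 in WT_B. For both, WT_F 30 was the highest library of WT_F, and all groups overlapped. With all libraries the differences of WT_B from WT_A were 0.27 for Mrps30 (limma adjusted p = 0.341) and 0.28 for Mrpl32 (limma adjusted p = 0.293). Without the 3 libraries they were 0.57 (limma adjusted p = 0.0114) and 0.45 (limma adjusted p = 0.0185), whereas against WT_F the adjusted p was 0.593 and 0.201. Over all 77 members, WT_A 22 was above the rest of its group for 14 and below it for 12, beside 24.5% and 30.5% of 13180 genes. WT_F 28 was above for 9 and below for 45, beside 23.3% and 36.9% of genes.

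Across the 77 members, the differences were related to level and length, which are not separate measures because FPKM divides by exon length. Spearman's rho between the log2 difference and the mean FPKM was -0.43 for WT_B against WT_A and -0.38 for WT_B against WT_F, and with exon length it was 0.35 and 0.31. Members share libraries and are not independent of each other, and the comparisons share WT_B, so these values are descriptions. Members with a bacterial counterpart and members found in mitochondria alone had medians of -0.25 and -0.23 in the first and of -0.22 and -0.23 in the second of these comparisons.

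No other gene listed for the pathway passed the same test. Of the mitochondrial ribosomal proteins with other symbols, Dap3, Ptcd3, Chchd1 and Aurkaip1 of the small subunit and Gadd45gip1 of the large one, 0 of 5 were called in each comparison. Ptcd3, a pentatricopeptide repeat protein, was at 9.89 ± 3.82, 10.6 ± 3.10 and 14.3 ± 0.858 FPKM in WT_A, WT_F and WT_B, with 15.5 in WT_A 22 and 15.7 in WT_F 28, and differed in WT_B by 0.54 from WT_A (limma adjusted p = 0.149) and by 0.43 from WT_F (limma adjusted p = 0.111). The other 4 had lower means in WT_B than in both other groups. Aurkaip1 had the smallest p of the 5 against WT_F, at 41.6 ± 9.92, 38.2 ± 4.74 and 29.96 ± 3.21 FPKM in the groups in turn (log2 difference from WT_F -0.34, SE 0.10, limma adjusted p = 0.0860). Dap3, a GTP-binding protein, was at 14.5 ± 2.58, 14.6 ± 1.04 and 12.7 ± 1.40 FPKM, Chchd1 at 41.7 ± 11.6, 42.7 ± 3.06 and 36.8 ± 3.04 FPKM, and Gadd45gip1 at 10.7 ± 2.55, 11.7 ± 1.61 and 9.34 ± 1.78 FPKM. Of 26 assembly factors, 0 were called in each comparison, with medians of 0.01, -0.13 and -0.12 for WT_F against WT_A, WT_B against WT_A and WT_B against WT_F. The smallest p among them in WT_B against WT_F belonged to Gtpbp10 (log2 difference 0.36, adjusted p = 0.0899 with limma), Noa1 (-0.23, adjusted p = 0.0913) and Mrm2 (-0.24, adjusted p = 0.0991), of which Gtpbp10 and Noa1 are GTPases and Mrm2 is a methyltransferase of the large subunit RNA. Of 17 translation factors, 14 or 15 were tested and 0 were called, with medians of 0.04, 0.01 and -0.03. Guf1, a translation factor with a counterpart in the bacterial LepA protein, had the smallest p among them in both comparisons of WT_B, at 1.43 ± 0.927 FPKM in WT_A and 2.71 ± 0.202 in WT_B (log2 difference 0.68, SE 0.20, limma adjusted p = 0.126). It too was high in WT_A 22 (2.73 FPKM) and WT_F 28 (2.63 FPKM). Mtif2, an initiation factor, differed by 0.41 between WT_B and WT_F (limma adjusted p = 0.107).

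The share of nuclear FPKM taken by the 78 members together was 0.833% ± 0.105 in WT_A, 0.834% ± 0.0538 in WT_F and 0.753% ± 0.0281 in WT_B. Single libraries were at 0.696% to 0.950% in WT_A, at 0.765% to 0.895% in WT_F and at 0.727% to 0.792% in WT_B. WT_A 24 was the lowest library of all, and WT_F 28 the lowest of its group, so the ranges overlapped.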

How the data were processed

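RNA-Seq of WT mouse heart was analysed in 14 libraries, grouped by the labels. The authors selected mRNA on poly-T beads, counted fragments with featureCounts and deposited FPKM values per Ensembl gene. Their processing notes name GRCm39 and DESeq2, and the aligner is not given in the sources used here. No count model was the main test, as FPKM are not counts. Names, exon lengths and overlaps came from GENCODE M21 (GRCm38), which named 52125 of 56748 genes, and promoters from RefSeq (GRCm38.p6). The test took genes that reached 0.5 FPKM in 4 or more of the libraries compared and ran on log2(FPKM + 1) with limma 3.58.1 (intensity trend) in R 4.3.3. This scale understates changes of low genes. The scripts were tested on simulated data. Fragments were recovered from the FPKM steps: of low values, 90.2% to 92.0% were within 0.02 of a whole number (4% by chance), and all 78 members came out whole.

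Members and gene lists were chosen with earlier results of these data known. The genes named are the 8 highest and 8 lowest members, called members (at most 6 per direction) or the 4 with the smallest p, the 4 least and 4 most variable in WT_B, the Mrps18 paralogues, misnamed members, other-named members and the list genes of smallest p; others were named after their values were seen. Mtrfr was not matched by name. Motif searches covered both strands of 300 bases. Figures used Python 3.11.15, pandas 2.3.3 and matplotlib 3.10.9. Alternatives are given in the closing section.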

Additional observations from a re-analysis of the deposited data

Results flagged for a closer look

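Values were examined for a library far from the others of its group in 120 groups of values, and 8 stood out, where chance gives about 1 in 20. The 120 include members named for their spread in WT_B, so this count is not a test. Over all members with fragments, 16 of 231 groups stood out. In WT_A, Mrps6 was at 54.1 FPKM in library 24 and at 7.94 to 14.4 in the other 3. Mrpl18 was at 49.02 FPKM in WT_A 22 and at 37.5 to 39.1 in the rest of the group. The mitochondrial percent of FPKM was 51.0% in WT_A 22 and 1.93% to 6.63% in the others. In WT_B, library 9 was far above its group for Mrps15 (37.9 FPKM against 23.9 to 25.6), Mrpl30 (45.9 against 27.9 to 32.2), Mrpl23 (12.5 against 8.06 to 8.87) and Mrps30 (4.73 against 3.15 to 3.54). In WT_F, Mrpl47 was at 3.48 FPKM in library 32 and at 4.20 to 4.43 in the others.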

How the results depend on the processing

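Calls depended on the setting, and the cause was not tested. For WT_F against WT_A, 3 genes were called, and 6 with a pseudocount of 0.1, 9 with all 14 libraries in 1 fit, 9 with array weights, and 1 each with no filter, with voom and without WT_A 22, WT_A 24 and WT_F 28; members stayed at 0 in every setting run. For WT_B against WT_A, 41 genes were called, and 0 with no filter, 26 at 2 FPKM, 108 with the mitochondrial genome removed, 401 with all libraries in 1 fit, 4811 with array weights, 2 with the mitochondrial covariate, 4206 without the 3 libraries and 9 with voom. Its 0 called members became 3 with all libraries in 1 fit, 53 with array weights and 51 without the 3 libraries. For WT_B against WT_F, 208 genes were called, and 20 with no filter, 35 with all libraries in 1 fit, 4233 with array weights, 11 with the covariate, 2645 without the 3 libraries and 470 with voom. Its 2 called members became 3 at 2 FPKM, 1 with no filter, with the mitochondrial genome removed or with quantile normalization, 0 with all libraries in 1 fit or the covariate, 52 with array weights, 42 without the 3 libraries and 5 with voom.

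Leaving out 1 library at a time gave 0 to 4 genes for WT_F against WT_A, 0 to 2392 genes and 0 to 12 members for WT_B against WT_A, and 17 to 2645 genes and 0 to 42 members for WT_B against WT_F. The highest count was without WT_F 32 in the first comparison, without WT_A 22 in the second and without WT_F 28 in the third. The subunit ratio then ranged from 1.66 to 1.73 in WT_A, 1.74 to 1.81 in WT_F and 1.60 to 1.73 in WT_B. From summed FPKM it was 2.19, 2.23 and 2.22 in WT_A, WT_F and WT_B, which also carries the larger number of Mrpl genes (49 against 29). From mean log2(FPKM + 1) it was 1.31, 1.32 and 1.28 in the same groups. With the covariate, log2 of the mitochondrial percent, the differences of WT_B from WT_A reversed to -0.27 for Mrpl1, -0.14 for Mrpl50, -0.12 for Mrpl32 and -0.091 for Mrps30. Those from WT_F reversed to -0.10, -0.15, -0.14 and -0.17 in the same order, and to -0.11 for Mrps18c. Fits with the covariate rest largely on WT_A 22 and WT_F 28, the only libraries outside WT_B with its high percent. Mrps30 against WT_F ranged from -0.031 to 0.13 with 1 library left out, and was negative without WT_F 32 (-0.031) or WT_B 9 (-0.0025). Removing the mitochondrial genome moved the median of all genes in WT_B against WT_A from -0.04 to 0.08 and that of the members from -0.25 to -0.10, so members stayed below the median of all genes; the split of called genes went from 33 higher and 8 lower to 96 and 12. In WT_B against WT_F that split went from 86 and 122 to 138 and 66. No paired analysis was possible because the groups share no mouse numbers.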
